A study of Mus musculus with 12 samples.

Results

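Hepatocytes are the parenchymal cells of the liver. Here they are the cell barcodes in which Alb, Apoa1, Apoa2 and Ttr together made up at least 4% of the unique molecular identifiers (UMIs, each standing for 1 captured mRNA molecule), adult globin mRNAs made up less than 10%, and Ptprc, Cd79a, Cd3e, C1qa, Stab2 and Clec4g together gave at most 1 UMI. These members, chosen by the UMIs of the 14 genes named, numbered 13013 of the 206146 barcodes that held 500 to 50000 UMIs with no more than 50% of them mitochondrial. The measurement was droplet-based single-cell RNA sequencing of whole dissociated livers of neonatal C57BL6/J mice, with 1 library per mouse. Mice of the anemia group (n = 6) lost 20 µL of blood per g body weight through the facial vein on 5 days between P2 and P10, and control mice (n = 6) received a needle stick without blood loss. Both groups carried the same genotype, were nursed by their dams, and were collected at P11 by the labels of the samples. The suspension was pelleted at low speed after enzymatic and mechanical dissociation, and the study itself analyzed immune cells, leaving the non-immune cells out.

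Hepatocytes make most plasma proteins and lipoproteins, detoxify ammonia through the urea cycle, release glucose between feeds and secrete hepcidin, the hormone that limits iron entry into the blood. They divide these tasks along the lobule: periportal cells, near the incoming oxygenated blood, carry urea cycle and gluconeogenic enzymes, and pericentral cells, near the outgoing vein, carry glutamine synthetase, drug-metabolizing cytochromes P450 and targets of Wnt signaling. When oxygen is short, hypoxia-inducible factors raise the transcription of glycolytic enzymes, and in the neonate the liver is also a site of erythropoiesis, so its hepatocytes lie next to developing red cells.

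The cells were selected on the levels of these 14 genes (4 markers, 4 adult globins and 6 genes of other lineages), so those levels are a description. Alb, the main plasma protein, averaged 43706 CPM (UMIs per 1000000 UMIs, here of all hepatocyte UMIs) in control and 31682 in anemic mice, Ttr 30924 and 28607, Apoa1 17891 and 13633, and Apoa2 17148 and 19903. Genes outside the rule bore the name out by RNA content, which does not tell intact cells from fragments. On the same scale, Ahsg and Trf, both plasma proteins, were at 29751 and 31850 CPM in the members and at 617 and 857 CPM in the other kept barcodes, and Cps1, the entry enzyme of the urea cycle, was at 1097 and 27.6 CPM. Just inside the threshold, 801 barcodes with 4 to 5% marker UMIs had Ahsg at 13748 CPM, and just outside it, 1057 barcodes with 3 to 4% had it at 10424 CPM. S100a9, a neutrophil gene, was at 870 CPM in those with 4 to 5% and at 112 CPM in all members. Of the members, 5153 (39.6%) held under 1000 UMIs and 2865 (22.0%) held 3000 UMIs or more. Malat1, a nuclear RNA, was at 4945 CPM in the members and at 27627 CPM in the other kept barcodes. It was at 2466 CPM in members under 1000 UMIs and at 1211 CPM in members with at least 16% marker UMIs. Only 17 of the 13013 member barcodes occurred in more than 1 library.

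Control mice gave 888 to 1221 hepatocytes and anemic mice 439 to 1631. They were 4.89, 6.52 and 6.97% of the kept barcodes in control mice and 2.36, 7.54 and 10.4% in anemic mice, where 3 such values here and below are the lowest, the median and the highest of 6 mice. The groups overlapped, with anemia 2 and anemia 3 lowest of all 12 mice at 439 and 499 hepatocytes and the other 4 anemic mice above every control. The mean share was 6.33 ± 0.777% (SD, n = 6) without and 6.54 ± 3.37% with blood loss, a difference within the spread between mice (exact two-sided Mann-Whitney p = 0.394, the smallest possible being 0.00216). Without anemia 2 and anemia 3 the difference was 2.27 percentage points, a value with no test, since these mice were left out after their shares were seen. A share is set by every cell type in the suspension. Barcodes with at least 10% globin UMIs, mRNAs of red cells, averaged 7.66% of the kept barcodes in control and 23.4% in anemic mice. With these left out of the denominator, the difference in the hepatocyte share was 1.97 percentage points (exact two-sided Mann-Whitney p = 0.394).

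The median hepatocyte held 1366 ± 190 UMIs in controls and 1223 ± 136 UMIs with anemia (SD, n = 6), and its median mitochondrial share was 2.72% and 2.31%. Its median share of the 4 marker genes averaged 10.8% in control and 9.17% in anemic mice, with 7.67% in anemia 2 and 7.80% in anemia 3. Since barcodes were kept by their UMIs and their mitochondrial and marker shares, these measures are given as a description. Pooled members with 4 to 8%, 8 to 16% and 16% or more marker UMIs had Mt1 at 3306, 1475 and 803 CPM. In the same order Cyp2e1 was at 825, 1271 and 1564 CPM. The part of the marker share in the changes below was not tested. Over all hepatocyte UMIs of a mouse, mitochondrial RNA made up 9.94 to 11.3% in control and 3.79 to 7.02% in anemic mice, with no overlap. Among members of 3000 UMIs or more the median mitochondrial share was 12.4 to 14.9% in control and 0.739 to 8.47% in anemic mice, and below 1000 UMIs it was 1.57 to 2.82% and 1.08 to 3.73%. Malat1 was lower as well, at 5077 to 7126 CPM of all hepatocyte UMIs in control and 2684 to 4296 in anemic mice. Among members of 3000 UMIs or more it was at 6123 to 9098 CPM in control and 3478 to 6160 CPM in anemic mice. There the groups overlapped, with control 2 at 6123 and anemia 5 at 6160 CPM. Members of that depth averaged 26.5% of the hepatocytes in control and 18.1% in anemic mice.

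**Figure D1:**
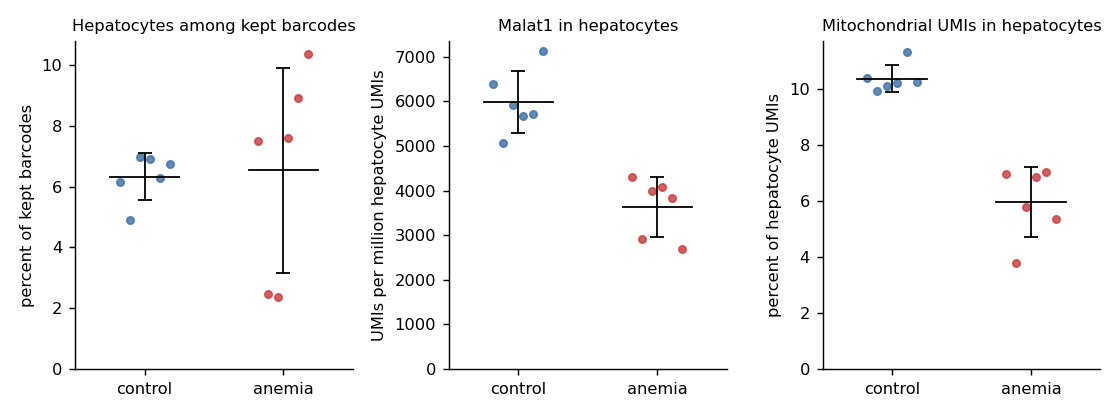
Hepatocytes in 6 control and 6 anemic mice, as their share of the kept barcodes in percent, their Malat1 level in CPM of all hepatocyte UMIs, and mitochondrial UMIs as a percentage of all hepatocyte UMIs. Points are mice, and lines with bars the mean and SD. The share overlaps between the groups and is more spread in anemia, where 2 mice lie at 2.36 and 2.46%, and neither Malat1 nor the mitochondrial percentage overlaps.

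To compare expression, UMIs were summed over the hepatocytes of each mouse and tested with edgeR's quasi-likelihood test, and a gene was called at a Benjamini-Hochberg adjusted p under 0.05 over 10662 tested genes. Levels below are CPM of the UMIs of tested genes after TMM scaling, changes are log2 fold changes of anemia over control with their standard error, and n is 6 mice per group. In such sums, fewer cells with a transcript and less of it per cell cannot be told apart. Of the tested genes 4033 (37.8%) were called, 2012 (18.9%) higher and 2021 (19%) lower in anemia, and a call of a single gene reads against these shares. The groups did not overlap for 1111 genes that were higher (10.4%) and 782 that were lower (7.33%). Among the calls, 249 rose and 323 fell by more than 1 on the log2 scale, and 55 and 33 by more than 2.

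The direction of the calls moved with the genomic length of the genes. Of 2455 tested genes spanning less than 10 kb, 36.6% were called higher and 5.95% lower (median change 0.29), whereas of 1510 genes spanning 100 kb or more 2.78% were called higher and 47.9% lower (median -0.46). In sinusoidal endothelial cells of the same livers the medians of these classes were 0.06 and -0.05. Long genes carry long introns, and unspliced RNA is held in the nucleus, as Malat1 is. With the span trend taken out of the changes, 1691 genes were called higher and 1198 lower, and 2372 of the 4033 calls were kept. With Malat1 as a covariate, which the design hardly separates from the groups, 104 were called higher and 19 lower and 122 of the calls were kept. Where the count with this covariate is not given for a gene list below, the list had at most 3 calls with it. Both alternatives were chosen after the data were seen, and the part of nuclear RNA in the changes was not tested. Without TMM factors the median of all genes shifted by -0.29, 847 genes (7.94%) were called higher and 4108 (38.5%) lower, and the share of calls that were higher went from 49.9% to 17.1%, so the changes below are relative to the TMM scaling. On that unscaled basis the medians of 5 gene lists that are above 0 below turned negative, at -0.18 for heme synthesis and breakdown, -0.25 for fetal liver genes, -0.25 for ATF4 and the unfolded protein response, -0.12 for the glucocorticoid response and -0.26 for the cell cycle, and gluconeogenesis and glycogen had 7 genes higher and 4 lower. The lists of plasma proteins and cytochrome P450 turned too, as given with their counts.

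**Figure D2:**
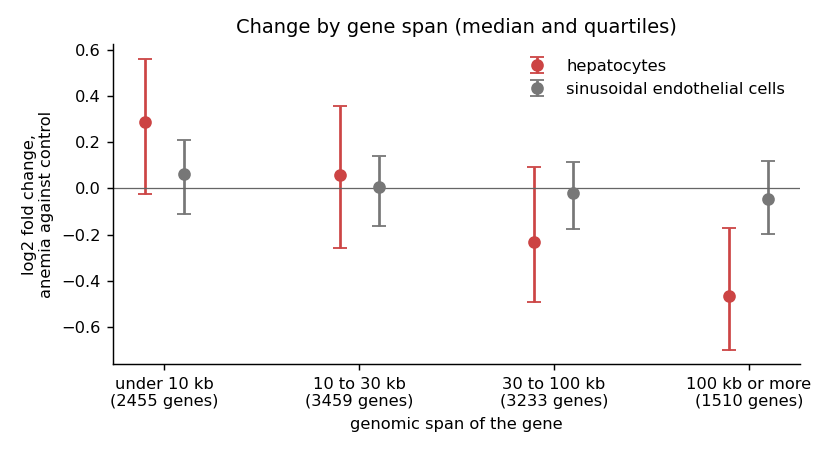
Log2 fold change of anemia against control by the genomic span of the gene, as the median and quartiles over the tested genes of each class, in hepatocytes and in sinusoidal endothelial cells. The hepatocyte medians go from 0.29 for the shortest to -0.46 for the longest genes, and the endothelial medians stay between -0.05 and 0.06.

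The metallothionein genes Mt1 and Mt2, for small cysteine-rich proteins that bind zinc and copper, rose in anemic hepatocytes, and neither was called with Malat1 as a covariate (adjusted p = 0.072 and 0.12). Mt1 (chr8:94179082-94180327, plus strand, GRCm38) was at 268, 421 and 622 CPM in control mice and 1788, 5082 and 14451 CPM in anemic mice. No anemic mouse overlapped the controls, and the highest values were 14451 and 9359 CPM in anemia 2 and anemia 3. The change was 3.90 ± 0.39, adjusted p = 1.0e-06, and it was 3.13 without those 2 mice. Its neighbor Mt2 (chr8:94172664-94173568, plus strand) was at 7.29, 17.2 and 36.7 CPM in control mice and 105, 386 and 1237 CPM in anemic mice, again without overlap, a change of 4.70 ± 0.54, adjusted p = 3.8e-06, or 3.74 without anemia 2 and anemia 3. Since both genes share sequence, reads could be split between them, and their single values are uncertain. With every cell thinned to 500 UMIs, a Mt1 UMI was found in 8.82, 14.2 and 18.5% of control and 42.8, 69.95 and 92.5% of anemic hepatocytes, against 7.71, 9.41 and 12.6% and 16.04, 18.8 and 24.7% of endothelial cells. Before thinning the medians in hepatocytes were 34.2 and 86.8%, at median depths of 1356 and 1194 UMIs per hepatocyte, and endothelial cells had median depths of 3576 and 4401 UMIs. Of the 9 tested genes of metallothioneins and zinc transport, 3 rose and 3 fell (median -0.01), and 0 were called with Malat1 as a covariate. The zinc importer Slc39a4 was at 66.6, 72.00 and 92.03 CPM in control mice and 15.97, 28.5 and 32.9 CPM in anemic mice, a change of -1.50 ± 0.15, adjusted p = 7.1e-07 with no overlap.

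The metal response element, to which the zinc-sensing factor MTF1 binds, has the core TGCACNC or TGCGCNC, with N any base. The 250 bases before the start of both genes, from RefSeq on GRCm38.p6 and written 5′ to 3′ on the gene's strand, are printed with every match to the core on either strand in capitals, because both genes are among the 12 largest rises without overlap.
Mt1, chr8:94178839-94179088, plus strand: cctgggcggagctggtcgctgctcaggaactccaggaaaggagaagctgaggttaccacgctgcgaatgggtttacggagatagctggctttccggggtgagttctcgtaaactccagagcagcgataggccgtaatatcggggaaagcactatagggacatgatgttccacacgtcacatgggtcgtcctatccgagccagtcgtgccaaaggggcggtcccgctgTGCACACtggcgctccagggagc
Mt2, chr8:94172368-94172617, plus strand: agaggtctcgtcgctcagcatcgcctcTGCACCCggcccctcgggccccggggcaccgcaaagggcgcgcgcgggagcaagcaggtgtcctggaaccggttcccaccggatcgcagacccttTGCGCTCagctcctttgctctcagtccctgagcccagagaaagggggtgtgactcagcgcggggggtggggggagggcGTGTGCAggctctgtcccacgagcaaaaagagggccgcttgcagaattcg
The starts used are not those of GENCODE. The Mt1 window ends past the GENCODE start of that gene (94179082), and the Mt2 window ends before that of Mt2 (94172664). The window of Mt1 held 1 match and that of Mt2 held 3. Only these windows were read, so the counts do not give the matches of the whole promoters. At least 1 match occurs in 21.4% of 32851 mouse promoters of this length and at least 3 in 1.26%. Matches describe the letters, not binding.

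Glycolytic enzymes and other hypoxia-responsive genes rose together. Of 34 listed genes 29 were tested, 20 rose, 2 fell and 7 did not pass the test, and their median change was 0.89 against -0.05 over all tested genes. With Malat1 as a covariate 13 of them were called, all higher. Gapdh was at 1825, 1936 and 2092 CPM in control mice and 6328, 7079 and 9512 CPM in anemic mice. Every anemic mouse lay above every control, 3.77-fold by the means (1.92 ± 0.09, adjusted p = 8.2e-11). Gpi1, the isomerase at the second step of glycolysis, was at 124, 143 and 159 CPM in control mice and 497, 667 and 849.5 CPM in anemic mice, also without overlap (2.21 ± 0.12, adjusted p = 1.9e-10).

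Pgk1 and Ldha, which make ATP and lactate late in glycolysis, changed by 1.52 ± 0.10 (adjusted p = 2.5e-09) and 1.06 ± 0.10 (adjusted p = 3.2e-07). Bnip3, a receptor for the removal of mitochondria, was at 153, 195 and 222 CPM in control mice and 579.5, 714 and 909 CPM in anemic mice. Its groups were separate, with a change of 1.98 ± 0.13, adjusted p = 2.5e-09. Mif, a cytokine, was at 368, 429 and 446 CPM in control mice and 1066, 1228 and 1558 CPM in anemic mice (1.61 ± 0.10, adjusted p = 2.0e-09), and Ankrd37 rose by 2.37 ± 0.23 (adjusted p = 5.2e-07). The 2 members that fell were Hif1a, the oxygen-regulated factor itself, with -0.62 ± 0.11, adjusted p = 0.00028, and the angiogenic factor Vegfa with -0.46 ± 0.10, adjusted p = 0.0017. Epo, the hormone of red cell production, had 6 UMIs in all control and 4 in all anemic hepatocytes and was not tested, so its level was not measurable at this depth.

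Hypoxia-inducible factors bind the core ACGTG or GCGTG. It is shown in capitals, on either strand, in the 250 bases before the RefSeq starts (GRCm38.p6) of Gapdh and Bnip3, the members with a match among the 4 with the smallest p. The start used for Gapdh lies inside the gene as GENCODE places it (chr6:125161715-125166467), so its window is within that gene.
Gapdh, chr6:125165774-125166023, minus strand: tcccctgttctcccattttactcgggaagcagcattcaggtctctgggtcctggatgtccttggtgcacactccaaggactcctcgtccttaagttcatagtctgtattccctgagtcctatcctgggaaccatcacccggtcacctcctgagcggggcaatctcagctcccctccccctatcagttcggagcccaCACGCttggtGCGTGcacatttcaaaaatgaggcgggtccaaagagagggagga
Bnip3, chr7:138909507-138909756, minus strand: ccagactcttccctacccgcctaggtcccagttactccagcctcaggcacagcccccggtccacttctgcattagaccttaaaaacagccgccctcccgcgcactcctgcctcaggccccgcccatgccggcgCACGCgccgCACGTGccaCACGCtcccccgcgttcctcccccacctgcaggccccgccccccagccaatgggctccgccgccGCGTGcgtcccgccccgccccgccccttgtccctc
Gapdh had 2 matches and Bnip3 had 5, and Gpi1 and Mif had none in their windows. Of all promoters of this length, 38.6% hold at least 1 match and 6.58% at least 3.

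Lipoprotein genes moved in both directions. Of 23 genes of apolipoproteins and lipoprotein assembly, 7 rose and 10 fell (median -0.33), without TMM factors 6 and 15, and with Malat1 as a covariate 4 rose and 0 fell. The largest rises were in genes of triglyceride-rich particles. Apoa4 (chr9:46240696-46243459, plus strand), an apolipoprotein of chylomicrons and very low density lipoprotein, was at 41.2, 46.8 and 99.2 CPM in control mice and 986, 1307 and 1608 CPM in anemic mice. The lowest anemic mouse lay far above the highest control, and the change was 4.57 ± 0.22, adjusted p = 5.7e-11, or 23.9-fold by the means. In cells thinned to 500 UMIs, 1.53, 1.93 and 3.69% of control and 19.8, 28.8 and 34.6% of anemic hepatocytes had an Apoa4 UMI, against at most 0.125% and 1.24% of endothelial cells, and the unthinned medians in hepatocytes were 7.37 and 50.3%.

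Apoc3 (chr9:46232933-46235636, minus strand), an inhibitor of lipoprotein lipase that lies beside Apoa4 on chromosome 9, was at 1179.9, 1432 and 1622 CPM in control mice and 7278, 8840.1 and 10116 CPM in anemic mice (2.63 ± 0.10, adjusted p = 2.6e-12). Apoa5, in the same cluster, was at 263, 291 and 324 CPM in control mice and 131, 222 and 327 CPM in anemic mice and was not called (adjusted p = 0.055). Apoc3 did not overlap between the groups. On the falling side were Apob, the structural protein of very low density lipoprotein, with -0.75 ± 0.15, adjusted p = 0.0008, and Apoe, which carries lipids into remnant particles, with -0.33 ± 0.08, adjusted p = 0.0049.

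**Figure D3:**
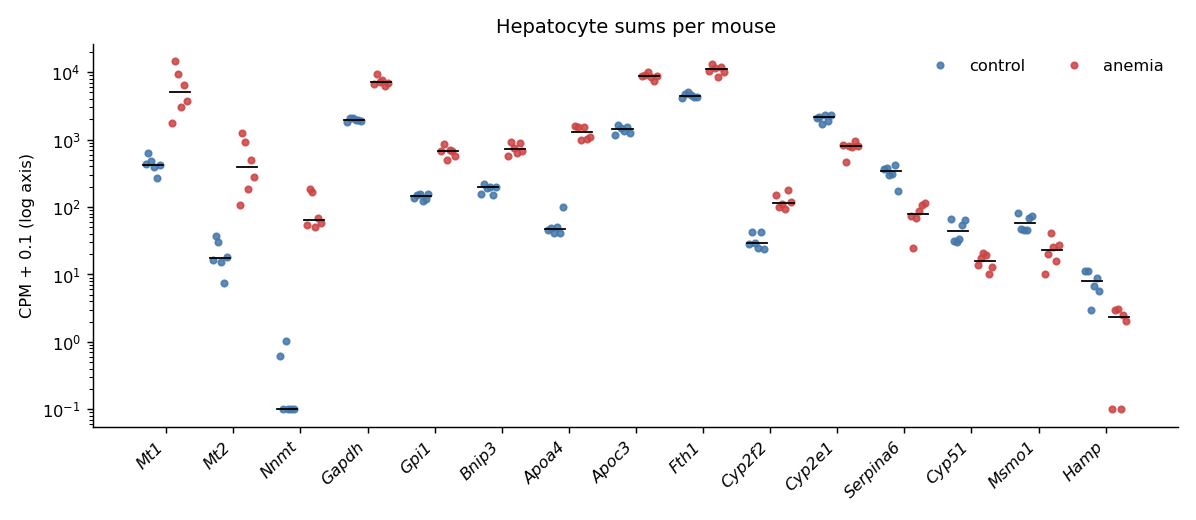
Levels of 15 genes in the hepatocyte sums of each mouse, as CPM plus 0.1 on a log axis. Points are 6 control and 6 anemic mice and short lines the medians. Mt1, Mt2, Nnmt, Gapdh, Gpi1, Bnip3, Apoa4, Apoc3, Fth1 and Cyp2f2 lie higher in every anemic than in every control mouse, Cyp2e1, Serpina6, Cyp51 and Msmo1 lie lower, and Hamp overlaps.

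Sterol synthesis genes were lower in anemia. Of 22 genes of cholesterol synthesis and SREBP2 targets, 0 rose and 16 fell (median -0.95), 18 with the span trend removed and 0 with Malat1 as a covariate. Cyp51 was at 29.8, 43.5 and 65.5 CPM in control mice and 10.2, 15.5 and 20.95 CPM in anemic mice (-1.63 ± 0.24, adjusted p = 4.2e-05). Msmo1 was at 45.5, 57.7 and 81.9 CPM in control mice and 10.1, 22.96 and 40.4 CPM in anemic mice (-1.45 ± 0.23, adjusted p = 0.0001). Both encode demethylating steps toward cholesterol, and in both the highest anemic mouse stayed below the lowest control.

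Of 16 tested genes of fatty acid synthesis, 2 rose and 9 fell (median -0.34). With the span trend removed 2 rose and 6 fell (median -0.13), and without TMM factors 2 rose and 12 fell (median -0.64). Srebf1, the transcription factor of this pathway, fell by 0.93 on the log2 scale (SE 0.18, adjusted p = 0.00051), and Elovl5, Fads1 and Pnpla3 changed by -0.76 ± 0.11, -0.70 ± 0.12 and -1.39 ± 0.26. The 2 that rose, named after their values were seen, were Elovl6 (0.82) and Thrsp (1.71). Of 26 tested genes of fatty acid oxidation, 8 rose and 8 fell (median -0.07), and without TMM factors 2 rose and 12 fell (median -0.36). Pdk4, which shuts the pyruvate dehydrogenase complex, was at 136, 221 and 259.8 CPM in control mice and 69.7, 77.3 and 98.1 CPM in anemic mice, lower in all 6 anemic mice (-1.34 ± 0.14, adjusted p = 1.5e-06). Cpt1a, which admits fatty acids to mitochondria, changed by -0.75 ± 0.11, adjusted p = 5.9e-05, and Hadhb, an enzyme of the oxidation cycle, by 0.55 ± 0.10, adjusted p = 0.00028.

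Genes of the 2 ends of the lobule moved in opposite directions. Of 22 periportal genes 14 rose and 1 fell (median 0.71), and of 23 tested pericentral genes 1 rose and 13 fell (median -0.54). With the span trend removed these counts were 15 and 2, and 1 and 14. With Malat1 as a covariate they were 3 and 0, and 0 and 1. Cyp2f2, a cytochrome of periportal cells, was at 23.5, 28.8 and 43.1 CPM in control mice and 91.9, 115 and 179 CPM in anemic mice and did not overlap (2.01 ± 0.18, adjusted p = 2.7e-07). Cyp2e1, a pericentral cytochrome that metabolizes ethanol, was at 1718, 2132 and 2316 CPM in control mice and 457, 804 and 965 CPM in anemic mice, with the lowest value in anemia 2 and every anemic mouse below every control (-1.42 ± 0.13, adjusted p = 4.9e-07). Thinned to 500 UMIs, 37.5, 45.4 and 47.3% of control and 12.1, 19.99 and 24.8% of anemic hepatocytes had a Cyp2e1 UMI, with 2.50% and 0.820% as the highest values in endothelial cells and unthinned hepatocyte medians of 67.5 and 38.4%.

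Targets and regulators of Wnt signaling were among the lowered pericentral genes. Notum, which inactivates Wnt ligands, was at 15.1, 20.8 and 27.5 CPM in control mice and 1.45, 8.40 and 9.47 CPM in anemic mice (-1.37 ± 0.22, adjusted p = 9.2e-05). Rnf43, which removes Wnt receptors, was at 23.9, 32.8 and 37.00 CPM in control mice and 8.87, 14.02 and 17.2 CPM in anemic mice (-1.16 ± 0.18, adjusted p = 6.4e-05). Lgr5, a receptor that strengthens the signal, was at 16.7, 21.6 and 32.7 CPM in control mice and 3.94, 6.63 and 15.98 CPM in anemic mice (-1.44 ± 0.28, adjusted p = 0.00048). All 3 were lower in every anemic mouse. Glul, the glutamine synthetase of the innermost pericentral cells, was at 319.6, 366 and 528 CPM in control mice and 266, 325 and 415 CPM in anemic mice and was not called (change -0.29 ± 0.13, adjusted p = 0.093), nor was Axin2 (-0.76 ± 0.33, adjusted p = 0.075). Glul passed the test without anemia 2 and anemia 3 (-0.36, adjusted p = 0.036).

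Of 31 genes of the urea cycle and amino acid breakdown, 20 rose and 0 fell (median 0.57), without TMM factors 12 rose and 1 fell (median 0.27), and 5 were called, all higher, with Malat1 as a covariate. Arg1, which releases urea, was at 275, 326 and 439.8 CPM in control mice and 706, 856 and 1094 CPM in anemic mice (1.37 ± 0.12, adjusted p = 3.0e-07). Ass1, of the urea cycle as well, was at 1037, 1626 and 2315 CPM in control mice and 2990.5, 3643 and 4264 CPM in anemic mice (1.14 ± 0.14, adjusted p = 8.0e-06). Neither overlapped between the groups. Sds and Got1, which break down serine and aspartate, changed by 1.65 ± 0.17 and 1.08 ± 0.10, and Cth, of cysteine synthesis, by 1.24 ± 0.15. Cps1 was at 1187, 1266 and 1596 CPM in control mice and 1137, 1579 and 2066 CPM in anemic mice and missed the threshold (adjusted p = 0.11). Of 20 genes of gluconeogenesis and glycogen, 11 rose and 0 fell (median 0.30). Fbp1, which is gluconeogenic, changed by 0.82 ± 0.10, adjusted p = 9.7e-06, and Slc37a4, which carries glucose 6-phosphate, by 1.02 ± 0.10, adjusted p = 1.2e-06. Igfbp1 was at 423, 628 and 1394 CPM in control mice and 1612, 1884 and 2151 CPM in anemic mice (1.40 ± 0.22, adjusted p = 7.4e-05), with 1 control, control 6, close to the anemic mice.

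**Figure D4:**
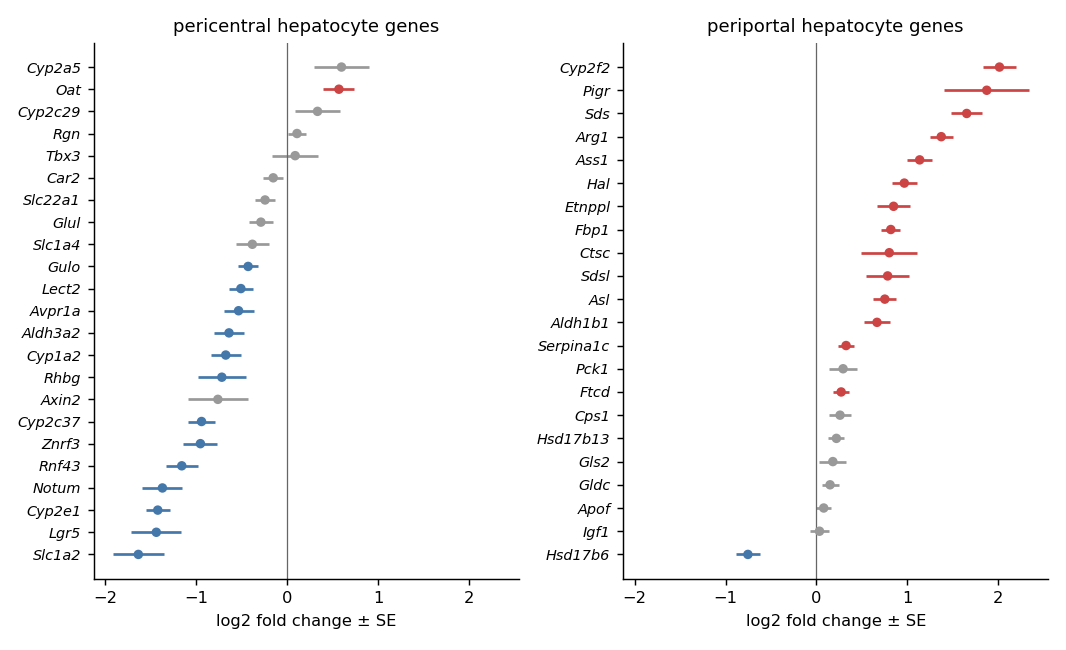
Log2 fold change (point) with its SE (bar) of every tested periportal and pericentral gene, anemia against control, with calls in color and genes that were not called in gray. Periportal genes run up to 2.01 for Cyp2f2, and pericentral genes run down to -1.64 for Slc1a2.

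Secreted plasma proteins split by gene. Of 23 plasma proteins 10 rose and 5 fell (median 0.15), and without TMM factors 7 rose and 9 fell (median -0.15), and with Malat1 as a covariate 4 rose and 1 fell. Rbp4, which carries retinol, was at 12294, 13396 and 14205 CPM in control mice and 18785, 19678 and 20433 CPM in anemic mice (0.55 ± 0.06, adjusted p = 3.3e-06). Trf, which carries iron, was at 29643, 33991 and 34961 CPM in control mice and 45544, 48339 and 59925 CPM in anemic mice (0.61 ± 0.08, adjusted p = 1.0e-05). Both were higher in every anemic mouse. In members with at least 16% marker UMIs the changes of Rbp4 and Trf turned to -0.28 and -0.067 and were not called. That set held 487 barcodes over all mice, 3.74% of the members, and was picked by the marker share. Serpina6, which carries corticosteroids, was at 170.1, 338 and 415 CPM in control mice and 24.7, 79.9 and 116 CPM in anemic mice, lower in every anemic mouse (-1.96 ± 0.24, adjusted p = 7.2e-06), and Itih2 changed by -0.99 ± 0.12, adjusted p = 5.4e-06. Serpina3k was at 42.5, 87.4 and 107 CPM in control mice and 254, 1256 and 2568 CPM in anemic mice (3.92 ± 0.41, adjusted p = 1.7e-06). Serpina3k and the Serpina1 genes have close relatives among the serpins, so their values are uncertain.

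Acute phase proteins are secreted by hepatocytes in response to cytokines such as IL-6. Of 20 listed genes 19 were tested, 13 rose, 2 fell (Socs3 and Steap4, named after their values were seen) and 4 did not pass the test, and the median change was 1.20. Much of it lay in 2 mice. There the summed level of lymphocyte genes was also higher than in the other 10 mice (934 and 945 against 151 to 735 CPM). Of the 10 tested lymphocyte genes 0 were called higher and 3 lower (Igkc, Ighm and Igll1). The largest mean among them was that of Cd74, 443 CPM after blood loss against 179 without, which was not called. Next after blood loss came Ccl5, with a mean of 72.4 CPM. How much of the sums in these 2 mice was Cd74 was not tested, nor was the part of this RNA in the acute phase changes. Without anemia 2 and anemia 3, 7 rose and 3 fell and the median was 0.43, and with Malat1 as a covariate 0 were called in either direction. Saa1 was at 23.4, 31.8 and 56.5 CPM in control mice and 15.4, 103 and 5496 CPM in anemic mice, with 1038 and 5496 CPM in anemia 2 and anemia 3 and 15.4 to 170.5 CPM in the other 4. Its change of 5.05 ± 1.14, adjusted p = 0.0019 became 0.92 (adjusted p = 0.101) without the 2 mice, and Saa2 and Orm2 were likewise not called without both. Orm1 was at 1.20, 8.23 and 42.4 CPM in control mice and 62.6, 231 and 5861 CPM in anemic mice, its change 7.04 ± 1.13, adjusted p = 9.3e-05 with and 3.85 without these mice. The Saa and Orm genes are near-identical pairs, so their single values are uncertain.

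Other acute phase genes were higher in every anemic than in every control mouse. Apcs, the serum amyloid P component, was at 898, 1005 and 1155 CPM in control mice and 2145, 3142 and 7358 CPM in anemic mice (1.98 ± 0.25, adjusted p = 8.5e-06). Fgl1, a hepatokine, was at 496, 533 and 619.5 CPM in control mice and 895, 1128 and 1759 CPM in anemic mice (1.20 ± 0.16, adjusted p = 1.3e-05). Neither overlapped between the groups. Hp, which binds free hemoglobin, was at 3582, 3872 and 4602 CPM in control mice and 4818, 6312 and 14602 CPM in anemic mice (1.06 ± 0.22, adjusted p = 0.0011), a change of 0.54 without anemia 2 and anemia 3. Lcn2, which binds bacterial siderophores, was at 18.4, 32.9 and 45.5 CPM in control mice and 88.2, 221 and 3194 CPM in anemic mice (4.84 ± 0.81, adjusted p = 0.00015), highest in anemia 3 and anemia 2, and its change was 2.35 without them. Neutrophils also make Lcn2. As CPM of all hepatocyte UMIs without TMM scaling, the 12 neutrophil genes summed to 175 to 570 in control and 317 to 2874 in anemic hepatocytes. Without Lcn2 these sums were 139 to 536 and 189 to 546. Of 20 coagulation and fibrinolysis genes 7 rose and 9 fell (median -0.19), Cpb2 with 0.75 ± 0.12 and F13b with -0.67 ± 0.11 among them. These counts were 2 and 12 without TMM factors and 4 and 8 without anemia 2 and anemia 3. Of 19 tested complement genes 1, Clu, rose (0.62 ± 0.17, adjusted p = 0.0074) and 4 fell (median -0.05), against 0 and 13 without TMM factors and 2 and 6 without anemia 2 and anemia 3, where Clu changed by 0.33. In members with at least 16% marker UMIs Clu was at a change of -0.15 and was not called.

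Of 26 tested genes of iron handling, 8 rose and 6 fell (median -0.11), and without TMM factors 5 rose and 11 fell (median -0.40). Hamp (chr7:30942368-30944032, minus strand), which encodes hepcidin, gave 90 UMIs in all control and 13 in all anemic hepatocytes. It was at 2.84, 7.77 and 11.3 CPM in control mice and 0, 2.20 and 2.99 CPM in anemic mice, a change of -2.35 ± 0.52, adjusted p = 0.0015. Groups overlapped by a narrow margin, since the lowest control was at 2.84 and the highest anemic mouse at 2.99 CPM. In thinned cells a Hamp UMI was found in 0.0930, 0.321 and 0.479% of control and 0, 0 and 0.200% of anemic hepatocytes and in at most 0.0745% of endothelial cells. Tmprss6, which lowers hepcidin expression, was at 148, 174 and 198 CPM in control mice and 75.5, 100.2 and 132 CPM in anemic mice, without overlap (-0.72 ± 0.11, adjusted p = 7.5e-05).

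Fth1 and Ftl1, the chains of ferritin, rose. Fth1 was at 4117, 4498 and 5113 CPM in control mice and 8533, 10971 and 13364 CPM in anemic mice (1.27 ± 0.10, adjusted p = 4.5e-08). Ftl1 was at 2169.7, 2443 and 3201 CPM in control mice and 3767, 4694 and 5502 CPM in anemic mice (0.89 ± 0.10, adjusted p = 4.2e-06). Neither overlapped between the groups. The transferrin receptor Tfrc was at 72.4, 114 and 118 CPM in control mice and 75.5, 89.3 and 128 CPM in anemic mice and was not called (adjusted p = 0.47). Of 15 genes of heme synthesis and breakdown 2 rose and 2 fell (median 0.11), or 1 and 5 without TMM factors. Hmox1, the inducible enzyme of heme breakdown, was at 39.04, 46.3 and 59.9 CPM in control mice and 13.2, 21.7 and 42.1 CPM in anemic mice (-1.10 ± 0.21, adjusted p = 0.00056). Hmox2, the constitutive one, was at 43.8, 48.6 and 52.6 CPM in control mice and 80.1, 101 and 128 CPM in anemic mice (1.05 ± 0.12, adjusted p = 2.7e-06).

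The growth hormone and insulin-like growth factor axis was mostly lower. Of 14 genes 1 rose, Igfbp1, and 9 fell (median -0.66), or 2 and 8 with the span trend removed (median -0.36), and with Malat1 as a covariate 0 were called. Igf1 itself was at 941, 1036 and 1307 CPM in control mice and 829, 1150.1 and 1204 CPM in anemic mice and did not pass the test (0.03 ± 0.10, adjusted p = 0.83). The growth hormone receptor Ghr was at 1152, 1239 and 1501 CPM in control mice and 407, 675 and 934 CPM in anemic mice (-0.86 ± 0.15, adjusted p = 0.00016). Socs2, a target of its signaling, was at 120.0, 163 and 178 CPM in control mice and 67.4, 82.8 and 115 CPM in anemic mice (-0.86 ± 0.12, adjusted p = 2.9e-05). Both were lower in every anemic mouse. Igfals, the partner of circulating IGF1, was at 80.2, 93.3 and 104 CPM in control mice and 27.6, 48.5 and 58.6 CPM in anemic mice (-0.94 ± 0.13, adjusted p = 2.7e-05). Irs1, an adaptor of the insulin receptor, was at 31.2, 39.01 and 48.01 CPM in control mice and 4.36, 13.5 and 24.9 CPM in anemic mice (-1.45 ± 0.22, adjusted p = 5.5e-05). These too did not overlap between the groups.

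Most nuclear-encoded subunits of the respiratory chain that were tested rose. Of 27 tested genes 24 rose and 0 fell (median 0.59, and 0.36 with the span trend removed, 21 then rising). Without TMM factors 17 rose and 2 fell, and with Malat1 as a covariate 2 rose. Cycs, cytochrome c, was at 444, 493 and 634 CPM in control mice and 953, 1232 and 1577 CPM in anemic mice (1.31 ± 0.12, adjusted p = 2.3e-07). Atp5o and Atp5g1, of ATP synthase, changed by 0.81 ± 0.08 and 0.84 ± 0.09, and Cox8a, of cytochrome oxidase, by 0.75 ± 0.08. None of these 4 overlapped. The mitochondrially encoded RNAs went the other way, as given above.

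**Figure D5:**
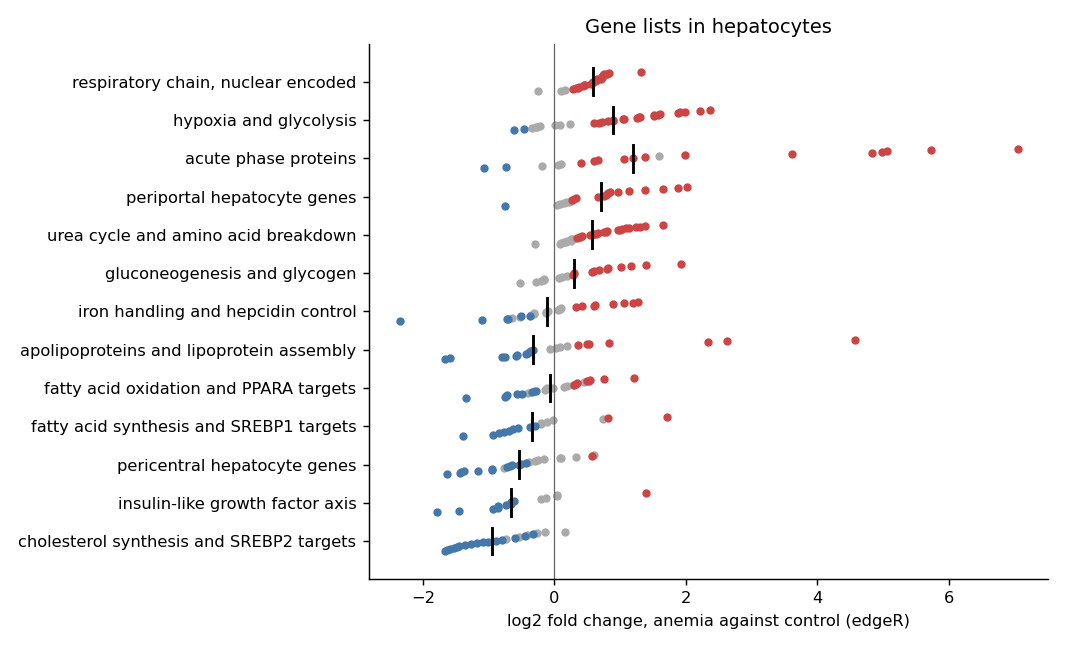
Log2 fold changes of the tested genes of 13 lists in hepatocytes, with each gene as a point and the list median as a line. Medians run from 1.20 for acute phase proteins and 0.89 for hypoxia and glycolysis to -0.95 for cholesterol synthesis.

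Among 24 tested genes of glutathione and NRF2 targets 7 rose and 6 fell (median -0.04), and without TMM factors 3 rose and 10 fell (median -0.34). Gstp1, a glutathione transferase, was at 557, 635 and 696 CPM in control mice and 1076, 1289.8 and 1734 CPM in anemic mice (1.12 ± 0.12, adjusted p = 1.9e-06). Gclc, the rate-limiting enzyme of glutathione synthesis, was at 323, 396 and 418 CPM in control mice and 200.4, 206 and 235 CPM in anemic mice (-0.85 ± 0.09, adjusted p = 1.7e-06). In both the groups were separate. Of 27 tested cytochrome P450 genes and partners 7 rose and 9 fell (median 0.02), or 2 and 12 without TMM factors (median -0.28) and 12 and 9 without anemia 2 and anemia 3, and Cyp2c54 and Cyp2c37, which belong to a family of close copies, changed by 2.26 ± 0.32 and -0.94 ± 0.15. Of 20 tested genes of bile acid synthesis and transport 4 rose and 9 fell (median -0.19), or 3 and 12 without TMM factors. Baat, which conjugates bile acids, changed by 1.62 ± 0.15, adjusted p = 3.1e-07, Nr0b2, a repressor of their synthesis, by 1.08 ± 0.14, adjusted p = 1.1e-05, and the export pump Abcc2 by -0.90 ± 0.14, adjusted p = 8.0e-05.

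Stress and signaling lists moved less uniformly. Of 20 immediate early and heat shock genes 2 rose and 9 fell (median -0.36), Jun at 215, 257 and 275 CPM in control mice and 109, 139 and 225 CPM in anemic mice (-0.78 ± 0.14, adjusted p = 0.00029), Egr1 with -0.67 ± 0.12 and Fosb with -0.72 ± 0.16, while the mitochondrial chaperone Hspe1 rose (0.55 ± 0.10). Of 22 tested genes of the ATF4 and unfolded protein response 6 rose, such as Shmt2 (0.77 ± 0.10), and 3 fell, such as Hspa5 (-0.52 ± 0.13), with a median of 0.04, and without TMM factors 2 rose and 8 fell. Of 16 glucocorticoid response genes 5 rose and 3 fell (median 0.17), or 4 and 5 without TMM factors, Lpin1 with 1.10 ± 0.22. Of 22 interferon response genes 3 rose (Ifi27, Ifitm3 and Bst2) and 1 fell (Stat2), with a median of 0.83. Without anemia 2 and anemia 3 the interferon median was -0.26, with 3 higher and 5 lower.

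Of 26 cell cycle genes 4 rose and 2 fell (median 0.04), and without TMM factors 2 rose and 8 fell. Cdkn1a, an inhibitor of the cycle, was at 13.3, 23.6 and 31.1 CPM in control mice and 52.4, 54.9 and 63.8 CPM in anemic mice (1.29 ± 0.16, adjusted p = 8.9e-06). Ccnd1, cyclin D1, was at 69.9, 81.6 and 92.3 CPM in control mice and 28.4, 50.01 and 56.6 CPM in anemic mice (-0.89 ± 0.14, adjusted p = 0.0001). Neither overlapped between the groups. Of 15 tested fetal and neonatal liver genes 3 rose and 4 fell (median 0.04), or 6 and 4 without anemia 2 and anemia 3 and 1 and 7 without TMM factors. Afp, the fetal counterpart of albumin, was at 528, 753 and 2689 CPM in control mice and 802, 1927 and 4582 CPM in anemic mice and missed the threshold (0.96 ± 0.38, adjusted p = 0.057), which it passed without anemia 2 and anemia 3 (1.21, adjusted p = 0.011). Meg3, an imprinted noncoding RNA, was at 67.8, 84.4 and 103 CPM in control mice and 7.79, 17.1 and 20.9 CPM in anemic mice (-2.49 ± 0.19, adjusted p = 4.1e-08). Of 23 tested growth factors and hepatokines 5 rose and 6 fell (median -0.12), or 3 and 12 without TMM factors, and Selenop, which carries selenium to other tissues, was at 5143, 5683 and 6122 CPM in control mice and 9862, 11522 and 13485 CPM in anemic mice (1.05 ± 0.08, adjusted p = 6.9e-08).

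Outside the lists, the 12 genes with the largest rises without overlap included Nnmt, Cyp17a1, Ndufa4l2, S100g, Eif4ebp3 and Wfdc21. Nnmt, which methylates nicotinamide, gave 3 UMIs in all control and 700 in all anemic hepatocytes, a ratio of 266 after scaling by total UMIs (95% interval 90.7 to 1294, counting error only). In single mice it was at 0, 0 and 0.946 CPM in control mice and 50.7, 63.9 and 186 CPM in anemic mice. The other 3 of the first 4 genes named were also separate between the groups. Ndufa4l2, a hypoxia-induced relative of a respiratory chain subunit, was at 1.04, 2.53 and 3.53 CPM in control mice and 38.4, 52.9 and 72.6 CPM in anemic mice (4.48 ± 0.23, adjusted p = 1.4e-10). Cyp17a1, of steroid synthesis, was at 0, 0.994 and 1.34 CPM in control mice and 25.6, 43.6 and 55.4 CPM in anemic mice (5.38 ± 0.34, adjusted p = 2.0e-09). S100g, a calcium-binding protein, was at 10.4, 16.5 and 24.7 CPM in control mice and 197, 212 and 262 CPM in anemic mice (3.73 ± 0.15, adjusted p = 3.8e-12).

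The 12 genes with the largest falls without overlap included Pnliprp1, Krt20, Lsamp, Nkain2, Meg3, Sgcz, Per3, Colec10, Ntrk2, Prok1 and Serpina6. Pnliprp1, a relative of pancreatic lipase, was at 27.4, 32.3 and 43.4 CPM in control mice and 0, 1.48 and 4.26 CPM in anemic mice (-3.79 ± 0.28, adjusted p = 1.7e-08). Per3, of the circadian clock, was at 15.5, 19.9 and 23.1 CPM in control mice and 0, 4.10 and 7.70 CPM in anemic mice (-2.11 ± 0.28, adjusted p = 1.9e-05). Lsamp, Nkain2 and Sgcz each span more than 1000 kb, and Lsamp, Nkain2 and Colec10 had higher means in the endothelial barcodes of control mice than in hepatocytes and were called lower there too.

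The changes were set against those in 20100 sinusoidal endothelial barcodes of the same mice, as the interaction of cell class and group with mouse as a block. The change differed for 3136 of the 10662 genes (29.4%), being higher in hepatocytes for 1805 (16.9%) and lower for 1331 (12.5%). Changes moved with gene span in hepatocytes and hardly in endothelial cells. The interaction was not fitted with the span trend removed or with Malat1 as a covariate. The part of gene span and nuclear RNA in the differences below was thus not tested. Of the 27 respiratory chain genes 22 changed more upward in hepatocytes and 0 more downward, and of the 29 hypoxia and glycolysis genes 13 and 5. Gapdh rose in both classes, by 1.92 in hepatocytes and 0.80 in endothelial cells, with a difference of 1.17 ± 0.15 (adjusted p = 1.1e-05). For Pgk1 the changes were 1.52 and 1.31, which did not differ at the threshold (0.28 ± 0.11, adjusted p = 0.064). Ndufa4l2 changed by 0.05 in endothelial cells (difference 4.50 ± 0.37, adjusted p = 6.5e-08).

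Of the 22 sterol genes 0 changed more upward and 9 more downward in hepatocytes. Cyp51 changed by -0.00 in endothelial cells, with a difference of -1.56 ± 0.31 (adjusted p = 0.00085). Of the 20 immediate early and heat shock genes 1 changed more upward and 10 more downward. Genes of hepatocytes were also seen in endothelial barcodes, Apoa4 at means of 1.90 and 10.5 CPM and Cyp2e1 at 29.1 and 7.30 CPM in control and anemic mice, and free RNA of the suspension can enter droplets of both classes. The part of free RNA in the endothelial changes was not tested. For Cyp2e1 the endothelial change was -1.86 and the difference 0.58 ± 0.24 (adjusted p = 0.075).

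Markers of the other liver cells were read in the hepatocyte sums as summed CPM of all hepatocyte UMIs, without TMM scaling. Stellate and fibroblast genes, 12 in all and none of them at 0, were at 206 to 407 CPM in control and 40.4 to 146 in anemic mice, with no overlap, and of 10 tested 0 rose and 5 fell (median -1.02), 8 without TMM factors, Reln with -1.77 ± 0.18 and Dcn with -1.42 ± 0.33. Erythroid genes were at 649.5 to 691 and 601 to 665 CPM, with Hbb-y, Hbb-bh1 and Hba-x, the embryonic globins, at 0, and of 10 tested 5 rose and 1, Blvrb, fell (median 0.34). That list leaves out the adult globins, whose share the choice of members caps. They made up 0.0514 to 0.188% of hepatocyte UMIs in control and 0.183 to 0.423% in anemic mice, and Hbb-bs averaged 684 and 1773 CPM of all hepatocyte UMIs. Barcodes with more than 1 UMI of Ptprc, Cd79a, Cd3e, C1qa, Stab2 and Clec4g together were not members. That limits Kupffer, lymphocyte and endothelial RNA in advance. Low levels and few calls of those lists are therefore partly set by the choice of members. Kupffer and monocyte genes were at 212 to 327 and 145 to 559.9 CPM, the highest in anemia 2, with 0 of 15 higher and 2 lower. Lymphocyte genes were at 163 to 735 and 151 to 945 CPM, the highest in anemia 3 and anemia 2 (945 and 934). Of these, 0 of 10 were higher and 3 lower (Igkc, Ighm and Igll1), Ighm and Igll1 not without anemia 2 and anemia 3. Igkc and Ighm were highest in control 3. Cd74 had the largest mean of the 10 after TMM scaling, 443 CPM with blood loss against 179 without, and was not called. Of 9 tested neutrophil genes 3 rose (Lcn2, Prtn3 and Retnlg) and 0 fell. Endothelial genes were at 94.97 to 134 and 66.5 to 146 CPM with 1 of 14 lower (Aqp1, not without anemia 2 and anemia 3), cholangiocyte genes at 39.0 to 134 and 18.1 to 107 CPM with 0 of 5 called, and platelet genes at 6.60 to 17.96 and 9.07 to 19.1 CPM with 0 of 2 called. The part of this RNA in the changes above was not tested. Xist, read as a sex marker, was present in 4 control and 2 anemic mice, and 0 of 4 tested sex-linked genes were called.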

How the data were processed

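The deposited values were UMI counts per gene and cell barcode, which the authors made with Cell Ranger 7.0.0 on mm10 per the submitters' processing notes, without normalization, 1 table per mouse. Whether intronic reads were counted is not given in the sources used here. The labels and the study's design text name different versions of the 10x 3′ kit, and all libraries carry the same batch label. The libraries held 46252146 to 74545930 UMIs, and the hepatocytes of a mouse 916752 to 3116897, so a gene was tested only if it averaged at least 5 UMIs per mouse. The 14 genes of the rule and the mitochondrial and ribosomal protein genes were left out of the tests. The members and the 37 gene lists were chosen with earlier results of these data known. Doublets were not called.

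UMIs were summed per mouse and compared between 6 control and 6 anemic mice with the quasi-likelihood test of edgeR 4.0.16 (TMM, Benjamini-Hochberg adjusted p under 0.05) in R 4.3.3. Hepatocyte shares per mouse were compared by exact two-sided Mann-Whitney tests. The labels give 1 library per mouse, so the spread is that between mice. In simulated counts the test called 73 of 100 genes with an absolute log2 fold change of 1, 97 of 100 with 2, and 5 of 10319 unchanged genes. There a small part of 10519 genes changed, evenly up and down, and genes were drawn independently without a span trend. In the data 37.8% of the genes were called and changes moved with gene span. The simulated counts thus do not give the error rate of the 4033 calls. Endothelial barcodes had at least 2 UMIs of Stab2 and Clec4g, no Ptprc, Cd79a, Cd3e or C1qa UMI, under 10% globin and under 4% hepatocyte marker UMIs. Gene spans and positions are those of GENCODE vM21 (GRCm38). Tables were handled in Python 3.11.15 with numpy 2.4.6, scipy 1.17.1 and pandas 2.3.3, and plots drawn with matplotlib 3.10.9. Named genes were the 12 called genes with the largest rises and the 12 with the largest falls. These had at least 10 CPM in 1 group, no overlap, and no place on the lists of other cell types or sex-linked genes. Markers of other cell types outside those lists were not left out. Up to 4 genes of each list with the smallest p were named too, and 7 in any case (Hamp, Tfrc, Epo, Afp, Igf1, Cyp2e1 and Cyp2f2). Another 19 were added after their values were seen, and some genes that the rule takes are not reported here. The alternatives were DESeq2 1.42.0, voom of limma 3.58.1 with quality weights, other scalings, filters, covariates and member thresholds, and leaving out each mouse. The deviations of same-numbered control and anemic mice from their group means correlated weakly (-0.0959 to 0.111), so the main test did not pair them. Weak correlations cannot exclude a shared litter or day.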

Additional observations from a re-analysis of the deposited data

Results flagged for a closer look

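Of 320 sets of 6 mice read for the named genes and 3 measures per mouse, 30 held 1 mouse that lay far from the other 5 (a gap to the nearest mouse of more than 0.625 of the whole range). That limit passes about 1 in 20 sets of independent, normally distributed values. The values here need not be so distributed, and the rate was not measured in these data. The values are CPM in the hepatocyte sums. In anemia 2 this was Hc at 180.1 CPM (others 249 to 275), Cyp2e1 at 457 CPM (others 779.5 to 965), Baat at 154 CPM (others 83.88 to 107), Slc10a1 at 499.5 CPM (others 633 to 651), Prdx2 at 424 CPM (others 305 to 331), C1qc at 40.66 CPM (others 20.95 to 25.33), Vsig4 at 5.809 CPM (others 10.35 to 12.66), Igf1 at 829.2 CPM (others 1087 to 1204) and Pgk1 at 995 CPM (others 704 to 789). In anemia 3 this was Sds at 160.1 CPM (others 85.24 to 111), Hspa5 at 489 CPM (others 367 to 407), Zbtb16 at 112 CPM (others 28.91 to 55.52), Saa1 at 5496 CPM (others 15.39 to 1038) and Saa2 at 3622 CPM (others 1.948 to 321). In anemia 4 this was Afp at 4582 CPM (others 802 to 2205). In anemia 5 this was Jun at 224 CPM (others 109 to 146). In anemia 6 this was Ntrk2 at 6.405 CPM (others 2.435 to 3.552). In control 1 this was Serpina1b at 10760 CPM (others 12020 to 12520) and Axin2 at 9.73 CPM (others 4.685 to 6.354). In control 2 this was Orm1 at 42.36 CPM (others 1.195 to 15.14), Baat at 50.13 CPM (others 27.91 to 34.82) and Saa1 at 56.48 CPM (others 23.42 to 35.48). In control 3 this was Igkc at 323 CPM (others 23.51 to 34.82) and Ighm at 205 CPM (others 17.53 to 32.48). In control 5 this was Nkain2 at 30.19 CPM (others 10.7 to 15.14) and Cps1 at 1596 CPM (others 1187 to 1287). In control 6 this was Apoa4 at 99.21 CPM (others 41.15 to 49.92), 3930402G23Rik at 9.96 CPM (others 3.12 to 5.676), Igfbp1 at 1394 CPM (others 423 to 750.2) and Afp at 2689 CPM (others 528 to 1135).

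For 6 named genes called in both cell classes, with an endothelial level of at least 0.2 of the hepatocyte level in controls, the change in hepatocytes went against that in sinusoidal endothelial cells of the same mice, and the edgeR interaction of cell class and group passed the adjusted threshold. Pdk4 changed by -1.34 in hepatocytes and 0.56 in endothelial cells, a difference of -1.82 ± 0.14 (SE). Socs2 changed by -0.86 in hepatocytes and 1.45 in endothelial cells, a difference of -2.12 ± 0.21 (SE). Pdia4 changed by -0.49 in hepatocytes and 0.20 in endothelial cells, a difference of -0.63 ± 0.11 (SE). Jun changed by -0.78 in hepatocytes and 0.38 in endothelial cells, a difference of -1.13 ± 0.16 (SE). Prtn3 changed by 2.20 in hepatocytes and -0.81 in endothelial cells, a difference of 2.88 ± 0.42 (SE). Hif1a changed by -0.62 in hepatocytes and 0.35 in endothelial cells, a difference of -0.91 ± 0.13 (SE).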

How the results depend on the processing

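Genes with few UMIs, mice of 439 and 499 hepatocytes and the low Malat1 and mitochondrial RNA of the anemic hepatocytes limit these results. Against 4033 called genes, the edgeR test called 109 (45 higher, 64 lower) in members with at least 16% marker UMIs, where 1521 genes were tested, 97 of them among the 4033, and 123 (104 and 19) with Malat1 as a covariate, 122 of them among the 4033. Without TMM factors 847 were higher and 4108 lower, 1306 were higher at a mean of at least 50 UMIs, where 4403 genes were tested, and 1198 were lower with the span trend removed. DESeq2 called 3648 and voom 4046. With the replicate number as a block 3707 were called, and the block kept 3595 of the 4033 calls and 141 of 144 named calls. The block gave p = 0.875 for the share by an exact sign-flip test. In members with at least 16% marker UMIs 77 genes changed differently from endothelial cells. Leaving out 1 mouse gave 3427 to 3906 called genes (1800 to 2025 higher, 1606 to 1928 lower) and 2628 to 3165 genes that changed differently from endothelial cells.

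The difference in the share of hepatocytes, 0.208 percentage points, was -0.503 and -0.181 at marker thresholds of 8% and 16%, -0.0660 at 1000 and -1.28 at 3000 UMIs or more, 2.27 without anemia 2 and anemia 3, and -0.561 to 1.04 without 1 mouse. The difference in the median mitochondrial percentage, -0.408, was 3.61 at 16% marker UMIs, -9.10 at 3000 UMIs or more, 0.221 without anemia 2 and anemia 3, and -0.585 to -0.124 without 1 mouse. These are values with no test, since the choice of members used the marker, UMI and mitochondrial shares. The UMIs per hepatocyte, -143 between the groups, ranged from -190 to -81.2 without 1 mouse.

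Members with at least 16% marker UMIs were 487 barcodes, 3.74% of all members. Log2 fold changes that turned sign there were Serpina1b (-0.051), Rbp4 (-0.28), Clu (-0.15), Trf (-0.067), Prdx1 (-0.17), Cebpb (-0.65) and Apoa5 (0.32). With Malat1 as a covariate the changes that turned sign were Clu (-0.16), Peg3 (0.16), Cebpb (-0.022), Bst2 (-0.17), Spp1 (0.42), Itga2b (0.82), Tfrc (0.14), Malat1 itself (0.18), Lgr5 (0.018) and Apoa5 (0.25). With it 41 of the 144 named calls were kept. Among genes that were not called, Spp1 was 0.10 at 3000 UMIs or more and -0.40 to 0.20 without 1 mouse, Ddx3y -0.17 with Y-linked expression as a covariate, Tfrc 0.043 at 8% marker UMIs, Cps1 -0.032 without TMM factors, and Igf1 -0.26 without TMM factors, -0.067 at a mean of at least 50 UMIs, -0.072 at 3000 UMIs or more and -0.0031 to 0.12 without 1 mouse. The causes were not tested. Without TMM factors and with DESeq2, 139 of the 144 named calls were kept, at 3000 UMIs or more 135, with the span trend removed 136 and without anemia 2 and anemia 3 137.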
